A study of Mus musculus with 48 samples.

Results

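The proteasome subunit genes of mouse liver were taken as the genes whose symbol reads Psm, then a letter from a to g, then a digit. The rule found 50 of the 24453 genes in the exon table and 48 of the 20771 genes in the intron table, where Psmb11 and Psme2b are not listed. By role they are 7 alpha-ring and 7 beta-ring genes of the 20S core, 3 inducible beta-ring genes, 6 ATPases and 11 other subunits of the 19S cap, 7 assembly chaperones, 5 activators and 1 inhibitor. The rule also takes 2 tissue-restricted core subunits, Psma8 and Psmb11, and Psmc3ip, a recombination factor that carries the name but is not a subunit.

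The proteasome degrades proteins that carry ubiquitin chains. Its 20S core is a barrel of stacked rings in which Psmb5, Psmb6 and Psmb7 encode the catalytic subunits, and under interferon these are replaced by Psmb8, Psmb9 and Psmb10, which form the immunoproteasome. The 19S cap recognises and unfolds substrates with a ring of ATPases, and other activators, among them the Psme1 and Psme2 products, can take its place.

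The libraries came from livers of 14-week-old mice labelled C57BL/6, either wild type or Nono-/-, which lack the RNA-binding protein NONO. Livers were taken at 12 zeitgeber times from ZT0 to ZT22, every 2 h, in 12 h light and 12 h dark, and food was given only in the dark phase during the week before. Total RNA and RNA of isolated nuclei were prepared from each liver sample, each a pool of 2 mice, which gives 4 groups of 12 libraries with 1 library at each time. The labels do not give the Nono allele or the sex, and with no replicate at a time, the error in every test is the scatter of pools around a daily curve.

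Nono was checked first, and its exons averaged 9.95 ± 0.594 FPKM in the wild-type libraries of total RNA and 0.0162 ± 0.0292 in Nono-/- (SD, n = 12), where 8 of 12 libraries listed it at 0. FPKM is a read count scaled to the length of the exons and the depth of the library. The depth worked out from the steps of low values was 9.91 to 28.94 M reads a library. Albumin, which marks hepatocytes, was between 20321 and 36819 FPKM in every total RNA library. Exons took the smallest share of reads in the wild-type ZT8 and Nono-/- ZT10 libraries of total RNA, 64.3% and 63.2%. Introns took 22.1% ± 1.72 of reads in wild-type and 18.5% ± 2.41 in Nono-/- total RNA (SD, n = 12). In nuclear RNA the number of genes at 1 FPKM or more was lowest in the Nono-/- ZT2 library, 6034, and highest in the wild-type ZT22 library, 9616.

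In wild-type total RNA the 14 constitutive core genes had a median level of 51.1 FPKM, the ATPases 34.8 and the assembly chaperones 5.44. Means of the core genes ran from 4.31 FPKM for Psma3 to 80.0 ± 10.7 for Psma6 (SD, n = 12), with Psmb4 at 78.5 ± 9.03 and Psmb7 at 78.5 ± 6.80 beside it. Those 3 genes did not differ beyond their spread. The 6 ATPases of the cap lay closer together, from 25.6 for Psmc5 to 52.4 for Psmc6, and the other cap genes between 10.6 for Psmd3 and 50.1 for Psmd8. Assembly chaperones were lower, from 4.65 for Psmg3 to 15.9 for Psmd5. Psme1 reached 41.96 ± 2.4 FPKM. Psma8, a testis subunit, stood at 0.447 ± 0.161. Psmb11, the thymus subunit, was listed at 0 in 10 of 12 wild-type and in all 12 Nono-/- total RNA libraries, where 3 reads over a group would equal 0.00320 and 0.00357 FPKM. These limits cover counting error only.

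Ring subunits stand in equal number in the assembled core, while the listed levels of their genes were far apart. Stretches that another annotated gene repeats, on either strand, were counted for each member. Genes at the same locus were not left out, so not every repeated stretch is a copy elsewhere in the genome. Mlx, counted for Psmc3ip, overlaps it on the other strand, and Tap1, counted for Psmb9, starts 226 bases from its start. Against the GENCODE M21 transcripts, 20 of the 50 members had a stretch repeated in another gene at 95% identity or more, and 8 had more than 70% of the transcript repeated. The 4 constitutive core genes with over 70% repeated (Psma4, Psma5, Psmb3, Psmb5) averaged between 6.81 and 38.7 FPKM. The 8 with no repeated stretch averaged between 44.0 and 80.0 FPKM. In the cap no such gap was seen. Psmc1, with 82.0% repeated, averaged 32.3 FPKM beside an ATPase median of 34.8. Psmd2, with 98.2% repeated, averaged 29.2 FPKM and was itself the median of the non-ATPase cap genes. Psma3, at 4.31 FPKM, had 32.5% repeated in 8 genes, and Psmb7 had 35.1% repeated in the protein-coding gene Nek6. Psme2 and Psme2b have 82.5% and 94.9% of their transcripts repeated in each other, so reads from these stretches may not be told apart. The sources used here do not give how reads in such stretches were counted, and the part of copies in these levels was not tested.

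**Figure D1:**
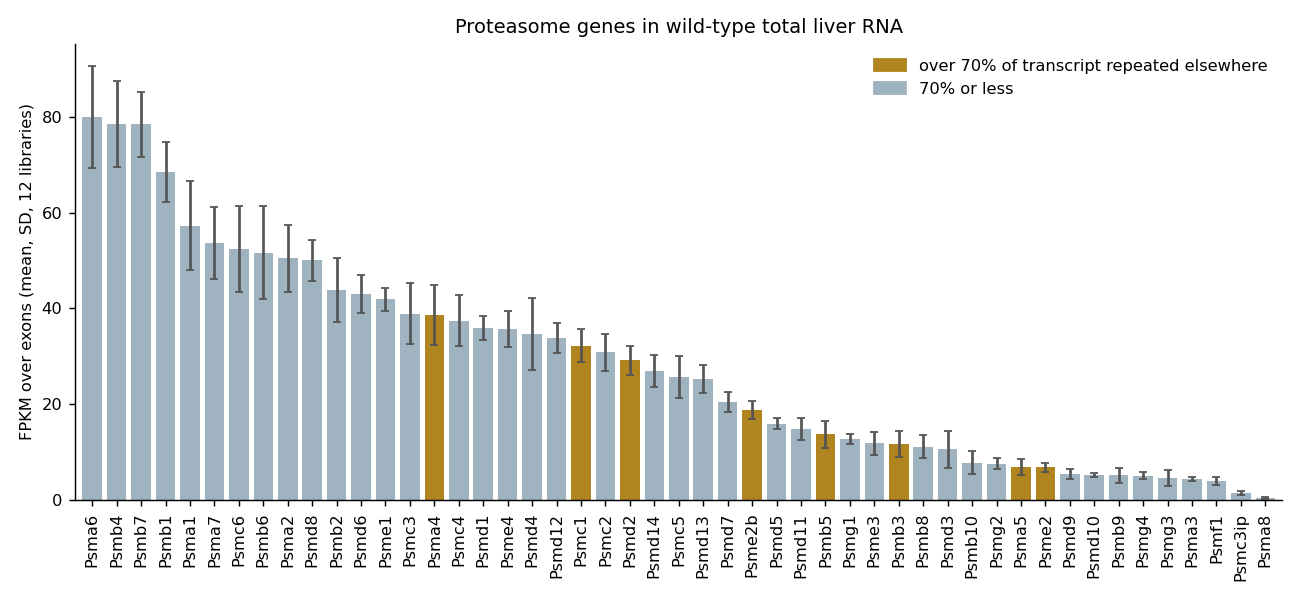
Mean FPKM over exons in wild-type total RNA for 49 members (bars, SD over 12 libraries, n = 12), ordered by level. Ochre marks members whose transcript is over 70% repeated in other annotated genes. Psmb11, listed at 0 in 10 libraries, is left out; Psma5 and Psmb5 at 6.81 and 13.7 FPKM sit far below Psma6 at 80.0.

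In total RNA some proteasome genes were higher in Nono-/-, namely 5 of 7 alpha-ring, 3 of 7 beta-ring, 2 of 3 inducible, 1 of 6 ATPase, 1 of 7 assembly chaperone and 3 of 5 activator genes. Of the 48 members tested, 15 rose and 0 fell, where 4.45% of the 11352 genes tested rose and 6.48% fell (limma with trend, Benjamini-Hochberg adjusted p under 0.05). The share of members that rose was 31.2%. The median member differed by 0.15 on the log2 scale and the median of all genes by 0.00, and 44 of 48 estimates were positive. Psma8 and Psmb11 were too low to be tested. All changes are differences of log2(FPKM + 0.1) after scaling each library to its median gene, or log2(FPKM + 0.05) for introns, so they understate changes of low genes. In bulk RNA, more cells of a type and more RNA per cell cannot be told apart.

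Among the 7 alpha-ring genes, which form the outer rings and gate of the core, 5 rose. Psma1 was 45.9, 53.5 and 75.5 FPKM in wild type (lowest, median and highest of 12) and 57.5, 70.05 and 83.1 in Nono-/-. Psma2 was 38.6, 50.8 and 62.4 FPKM against 48.2, 62.0 and 73.8. The ranges overlapped for both, and the Nono-/- medians lay near the upper part of the wild-type range. The changes were 0.29 ± 0.08 for Psma1 and 0.27 ± 0.07 for Psma2 (log2, SE; limma adjusted p = 0.0193 and 0.0131), higher at 11 and 10 of 12 times after scaling. Psma6 was 64.6, 77.7 and 100.2 FPKM against 83.3, 94.0 and 125.6, a change of 0.26 ± 0.08 (limma adjusted p = 0.0284). Psma7 was 42.8, 54.9 and 66.9 FPKM against 43.7, 64.9 and 79.1. Both pairs of ranges overlapped. Psma5, whose levels are given with the rhythms, changed by 0.22 ± 0.06 and Psma7 by 0.21 ± 0.07 (limma adjusted p = 0.0301 and 0.0477), and with each time as a block the adjusted p were 0.111 and 0.0513. Psma7 kept its call in 1 and Psma5 in 4 of the 12 fits that leave out 1 time, so both stand close to the threshold, while Psma1 and Psma2 kept it in all 12. After the correction of each library for GC content Psma2 no longer passed (0.19, limma adjusted p = 0.0503), and Psma1 did (0.24).

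Of the 7 constitutive beta-ring genes 3 rose. Psmb1 was 59.8, 69.6 and 81.5 FPKM in wild type and 56.9, 83.0 and 88.7 in Nono-/-, and its change was 0.21 ± 0.05 (limma adjusted p = 0.0166). Psmb4 was 61.6, 77.0 and 96.2 FPKM against 66.1, 92.8 and 105.7, a change of 0.22 ± 0.06 (limma adjusted p = 0.0204). Psmb7, which encodes the trypsin-like site, was 66.9, 79.4 and 88.9 FPKM against 74.5, 93.0 and 102.1, a change of 0.21 ± 0.06 (limma adjusted p = 0.0273). The ranges of each overlapped, and the lowest Nono-/- value of all 3 was in the ZT10 library, whose exon share was the smallest. Psmb5 (0.09 ± 0.10) and Psmb6 (0.05 ± 0.11), the other catalytic genes, did not pass the test (limma adjusted p = 0.612 and 0.812).

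In the 19S cap 1 of 17 genes rose. Psmc6, an ATPase, was 41.9, 50.9 and 75.1 FPKM in wild type and 54.4, 67.2 and 79.5 in Nono-/-. The highest wild-type value was the ZT8 library, above all but 2 of the Nono-/- libraries, and the other wild-type libraries lay lower. Its change was 0.34 ± 0.08 (limma adjusted p = 0.00892), and it kept the call in all 12 fits that leave out 1 time. The other 5 ATPases differed by 0.11 to 0.12 with none past the threshold. The 11 non-ATPase cap genes ranged from -0.09 to 0.23, with 0 called. Of the 7 assembly chaperones Psmd5 rose, from 14.1, 15.6 and 17.8 FPKM to 15.9, 19.2 and 21.9, a change of 0.23 ± 0.07 (limma adjusted p = 0.0367).

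The promoter window of Psmc6 is shown because this ATPase was the cap gene that rose and its window holds a match, in capitals, to the core of the antioxidant response element, which binds the factors NFE2L1 and NFE2L2 known for driving proteasome genes. The windows run from 250 bases before the start site to 50 after, from RefSeq on GRCm38.p6, and 42 of the 50 members have one.

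Psmc6, chr14:45329574-45329873, plus strand: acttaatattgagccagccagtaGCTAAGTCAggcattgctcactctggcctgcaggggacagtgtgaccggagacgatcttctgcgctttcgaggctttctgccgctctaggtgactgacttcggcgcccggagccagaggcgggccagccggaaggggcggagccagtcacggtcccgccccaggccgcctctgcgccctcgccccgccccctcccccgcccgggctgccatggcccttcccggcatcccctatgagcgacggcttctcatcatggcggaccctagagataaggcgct

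The letters searched were TGACNNNGC on both strands. They occur in 6 of 42 member windows (14.3%), namely those of Psmb5, Psmb6, Psmc6, Psmd12, Psmd9 and Psme4, and in 12.4% of all 32851 windows of this length. Of those 6 genes only Psmc6 rose in total RNA. The CCAAT box was in 35.7% of member windows and 37.4% of all windows, and the heat shock element GAANNTTC in 7.14% and 7.86%. A match is a description of the letters and not a site.

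The largest rises in total RNA were those of Psmb9 and Psmb8. Psmb9, the counterpart of Psmb6 in the immunoproteasome, was 2.16, 5.26 and 8.03 FPKM in wild type and 4.89, 7.15 and 20.9 in Nono-/-. Psmb8, the chymotrypsin-like subunit of the immunoproteasome, was 6.90, 11.9 and 14.2 FPKM against 7.66, 16.2 and 30.4. Psmb10, the trypsin-like one, was 3.41, 7.55 and 11.5 FPKM against 3.68, 8.85 and 16.3. The ranges overlapped for all 3, and the highest Nono-/- value of each was the ZT6 library, far above the median. Psmb9 changed by 0.65 ± 0.14, a fold of 1.57 (limma adjusted p = 0.00628), and it kept its call in all 12 fits that leave out 1 time. Psmb8 changed by 0.45 ± 0.14, a fold of 1.37 (limma adjusted p = 0.0361), but kept its call in 1 of 12 such fits. Psmb10, at 0.07 ± 0.17, did not pass the test (limma adjusted p = 0.85).

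Ratios of each inducible gene to its constitutive counterpart are given as a description. Psmb8 to Psmb5 was 0.820 ± 0.130 in wild-type and 1.07 ± 0.260 in Nono-/- total RNA (SD, n = 12), though copies of Psmb5 make that level uncertain. Psmb9 to Psmb6 was 0.101 ± 0.0283 and 0.155 ± 0.0521. Psmb10 to Psmb7 was 0.1005 ± 0.0339 and 0.0925 ± 0.0392. The Psmb8 and Psmb9 ratios averaged higher in Nono-/- with overlapping ranges, and the Psmb10 ratio did not. Psmb9 and Psmb8 lie on either side of Tap1, the peptide transporter of the class I pathway, and the start sites of Psmb9 and Tap1 are 226 bases apart. Tap1 averaged 3.41 ± 1.02 FPKM in wild type and 4.43 ± 2.52 in Nono-/- total RNA, with its highest value 11.4, and did not pass the test.

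The windows of Psmb9, Psmb10 and Psme1 are shown to set the gene that rose most, the inducible gene that did not pass, and an activator gene side by side. Capitals mark matches to the motifs searched: in Psmb9 a heat shock element and a CCAAT box read on the other strand, and in Psme1 the interferon-stimulated element, a pair of GAAA runs 2 bases apart, read on the other strand.

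Psmb9, chr17:34187281-34187580, minus strand: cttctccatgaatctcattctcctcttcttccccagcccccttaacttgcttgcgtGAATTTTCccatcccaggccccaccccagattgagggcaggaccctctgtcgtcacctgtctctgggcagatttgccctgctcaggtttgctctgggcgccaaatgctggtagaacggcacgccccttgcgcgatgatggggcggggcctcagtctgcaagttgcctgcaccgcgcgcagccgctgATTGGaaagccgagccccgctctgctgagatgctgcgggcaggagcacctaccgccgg

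Psmb10, chr8:105938343-105938642, minus strand: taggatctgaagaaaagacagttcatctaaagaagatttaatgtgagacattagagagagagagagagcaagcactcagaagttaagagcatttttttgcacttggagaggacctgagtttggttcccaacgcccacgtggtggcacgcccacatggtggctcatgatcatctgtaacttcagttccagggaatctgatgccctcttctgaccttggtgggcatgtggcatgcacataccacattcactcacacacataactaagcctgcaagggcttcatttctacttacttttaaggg

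Psme1, chr14:55578244-55578543, plus strand: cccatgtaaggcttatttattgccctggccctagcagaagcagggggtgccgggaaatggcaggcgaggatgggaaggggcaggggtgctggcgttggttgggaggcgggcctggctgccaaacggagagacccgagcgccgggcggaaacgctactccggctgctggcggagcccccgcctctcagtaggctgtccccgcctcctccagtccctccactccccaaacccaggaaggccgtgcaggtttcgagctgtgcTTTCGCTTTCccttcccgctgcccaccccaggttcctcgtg

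No motif searched is in the Psmb10 window. The interferon-stimulated element is in 5 of 42 member windows (11.9%), those of Psmb3, Psmd4, Psmd9, Psme1 and Psmg4, and in 3.44% of all windows. Of those 5 genes Psme1 rose in total RNA. The Psmb9 window, chr17:34187281-34187580, also contains the Tap1 start at 34187556.

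Psme1 and Psme2 encode the PA28 activator, which interferon also raises. Psme1 was 37.4, 42.1 and 45.7 FPKM in wild type and 36.3, 47.7 and 55.7 in Nono-/-, a change of 0.15 ± 0.05 (limma adjusted p = 0.0417, and 0.0579 with each time as a block). Psme2 was 5.40, 6.94 and 7.78 FPKM against 6.13, 8.10 and 10.4, and Psme2b was 15.9, 18.7 and 21.9 against 15.3, 24.1 and 29.1. Of the 12 Nono-/- libraries 11, 10 and 11 stood above the wild-type median for Psme1, Psme2 and Psme2b, and the ranges overlapped. Psme2 and Psme2b changed by 0.27 ± 0.07 and 0.27 ± 0.05 (limma adjusted p = 0.0162 and 0.00447). The pair may share reads and is read as 1 signal, though both genes enter the counts of members and activators that rose. Psme3 (-0.12 ± 0.06), the nuclear activator, and the inhibitor Psmf1 (-0.02 ± 0.07) did not pass.

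Macrophage markers rose in total RNA too. Of 8 Kupffer cell and macrophage markers, 5 rose, and their summed level was 65.1 to 173.3 FPKM in wild type and 87.4 to 214.3 in Nono-/-. Of 4 stellate cell markers 1 rose, and 0 of 6 endothelial, 3 red cell, 2 neutrophil, 1 B cell and 1 cholangiocyte markers tested did. Of 6 hepatocyte markers 0 rose and 1 fell. Summed T and NK cell markers were 0.789 to 1.74 FPKM against 0.936 to 3.14, with none of 5 high enough to be tested and Cd3e listed at 0 in 1 library of each group. The Nono-/- ZT6 library, where Psmb8, Psmb9 and Psmb10 were highest, also had the highest sums of Kupffer, T and NK, and B cell markers in total RNA. Without ZT6 Psmb9 changed by 0.57 (limma adjusted p = 0.0155) and Psmb8 by 0.40 (limma adjusted p = 0.058). The part of these cells in the rise of Psmb8, Psmb9 and the activators was not tested.

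**Figure D2:**
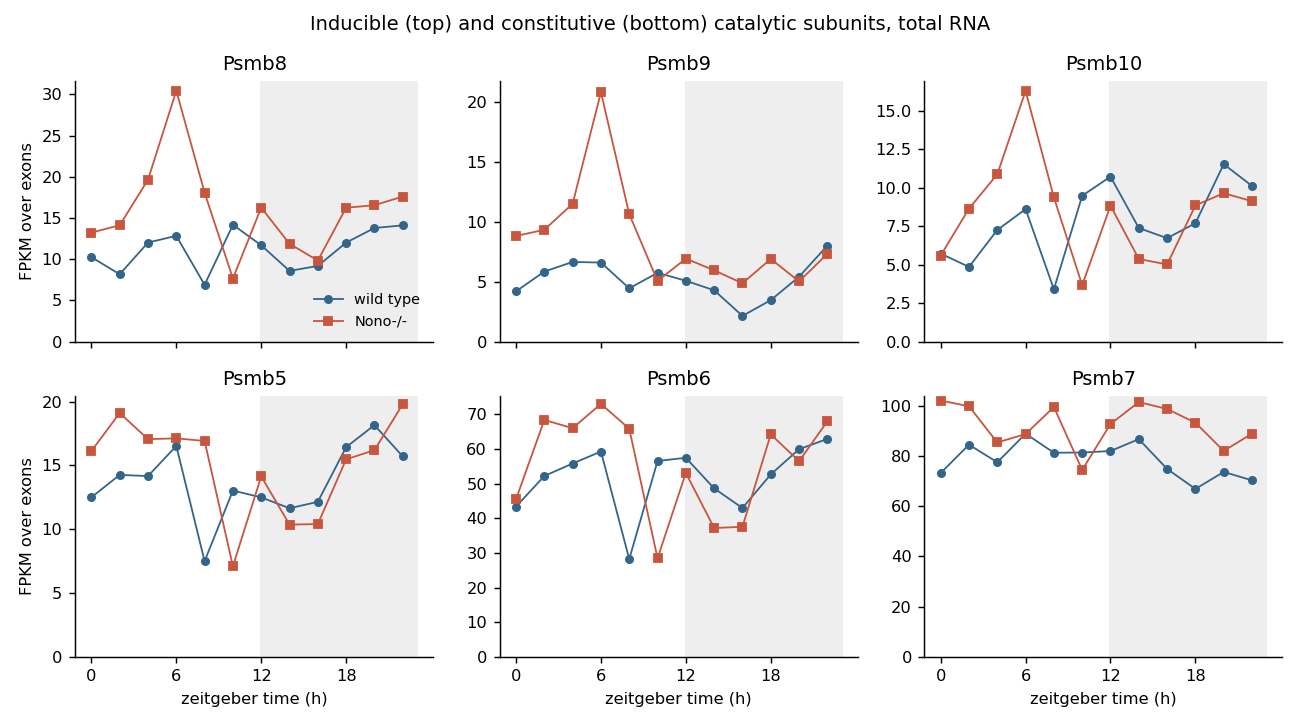
FPKM over exons by zeitgeber time in total RNA for the inducible catalytic subunits (top) and their constitutive counterparts (bottom), 1 library a point, with the dark phase shaded. Psmb8, Psmb9 and Psmb10 reach 30.4, 20.9 and 16.3 FPKM in the Nono-/- ZT6 library, and Psmb5 and Psmb6 are lowest in the wild-type ZT8 and Nono-/- ZT10 libraries.

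The 15 rises in total RNA became 6 without ZT16, 8 without ZT4 or ZT12, 9 without ZT0 and 16 without ZT10. Psma1, Psma2, Psmb9, Psmc6, Psme2 and Psme2b kept their call in all 12 fits that leave out 1 time. When the intron share was added as a covariate, 0 members passed, and 23 of all genes did. The median member was then at 0.07, and single estimates were 0.21 for Psma1, 0.20 for Psma6, 0.32 for Psmc6, 0.41 for Psmb9 and 0.12 for Psma2. After the GC correction 22 members rose, 13 of them among the 15 (all but Psma2 and Psme1), where 18.4% of all genes were called in either direction.

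Other genes of the pathway were counted in the same fit. In total RNA, of 26 tested partners outside the Psm names, Pomp, which guides core assembly, rose (0.27 ± 0.06, limma adjusted p = 0.0118), and 3 fell: Ddi2, the protease that activates NFE2L1 (-0.30 ± 0.07), Nploc4 (-0.17 ± 0.05) and Ubqln4 (-0.26 ± 0.07). Among the transcription factors reported here Foxo1 fell (-0.46 ± 0.10). None of 5 ubiquitin genes and E1 enzymes, 13 class I antigen processing genes or 13 cytosolic chaperones passed. The medians of these 5 lists lay between -0.04 and 0.07.

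In nuclear RNA exons the calls among proteasome genes were falls in Nono-/-. Of 46 members tested 0 rose and 12 fell, 26.1% of them, where 15.7% of the 10500 genes tested rose and 18.6% fell. The median member differed by -0.12 and the median of all genes by 0.00. The share that fell is near the background share. Estimates were positive for 16 of 46 members, among them 4 of 5 activators and the inhibitor Psmf1. Members that fell were Psmb10, Psmb6, Psmb7 and Psma7 of the core, Psmc2, Psmc3 and Psmc5 of the ATPases, and Psmd2, Psmd3, Psmd4, Psmd7 and Psmd8 of the cap.

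Psmb10 was 0.769, 1.41 and 2.08 FPKM in wild-type nuclear RNA and 0.165, 0.690 and 0.839 in Nono-/-. It was lower at 12 of 12 times, and 9 Nono-/- libraries were below the lowest wild-type library. Its change was -0.92 ± 0.17 (limma adjusted p = 0.00182), beside no call in total RNA. Psma7 was 4.26, 5.40 and 9.83 FPKM against 1.54, 3.51 and 4.83, a change of -0.54 ± 0.11 (limma adjusted p = 0.00232). The 2 ranges overlapped only in part.

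Psmd3 and Psmd4, a scaffold subunit and a ubiquitin receptor of the cap, had the largest falls after Psmb10. Psmd4 was 3.56, 6.59 and 11.02 FPKM against 1.02, 4.14 and 6.43, a change of -0.74 ± 0.19 (limma adjusted p = 0.00795). Psmd3 was 1.02, 2.25 and 4.73 FPKM against 0.340, 1.09 and 1.88, a change of -0.72 ± 0.16 (limma adjusted p = 0.00384). For both genes the lowest library was Nono-/- ZT2 and the highest wild-type ZT22, which are the libraries with the fewest and the most genes detected.

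Of the ATPase genes Psmc5 (-0.51 ± 0.11), Psmc3 (-0.50 ± 0.13) and Psmc2 (-0.23 ± 0.06) fell, and the differences among the 3 were not tested. Psmc5 was 2.56, 3.62 and 5.68 FPKM against 0.929, 2.05 and 3.75, Psmc3 was 2.99, 4.40 and 8.62 against 1.17, 2.89 and 4.66, and Psmc2 was 4.19, 5.12 and 7.69 against 2.91, 3.73 and 5.32. All 3 pairs of ranges overlapped. Psmb6 was 1.84, 3.52 and 6.63 FPKM against 1.22, 2.28 and 3.15 (-0.52 ± 0.14). With the intron share as a covariate Psmc3 (-0.31, limma adjusted p = 0.0648) and Psmb6 (-0.41, 0.0683) no longer passed, nor after the GC correction (-0.18 and -0.16, limma adjusted p = 0.0926 and 0.413). Psmc5 and Psmc2 passed in both fits. Psmd8 was 2.88, 3.87 and 5.35 FPKM against 1.17, 2.68 and 4.14 (-0.31 ± 0.09), and Psmd7 was 3.89, 4.89 and 5.81 against 2.39, 3.32 and 4.805 (-0.26 ± 0.08). Psmd2, which has a copy over 98.2% of its transcript, was 3.33, 3.56 and 5.01 FPKM against 1.66, 2.77 and 3.81 (-0.20 ± 0.06). Psmb7 was 5.39, 6.50 and 8.67 FPKM against 3.34, 4.98 and 7.35 (-0.18 ± 0.07), with a limma adjusted p of 0.12 when each time was a block. These ranges overlapped too.

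**Figure D3:**
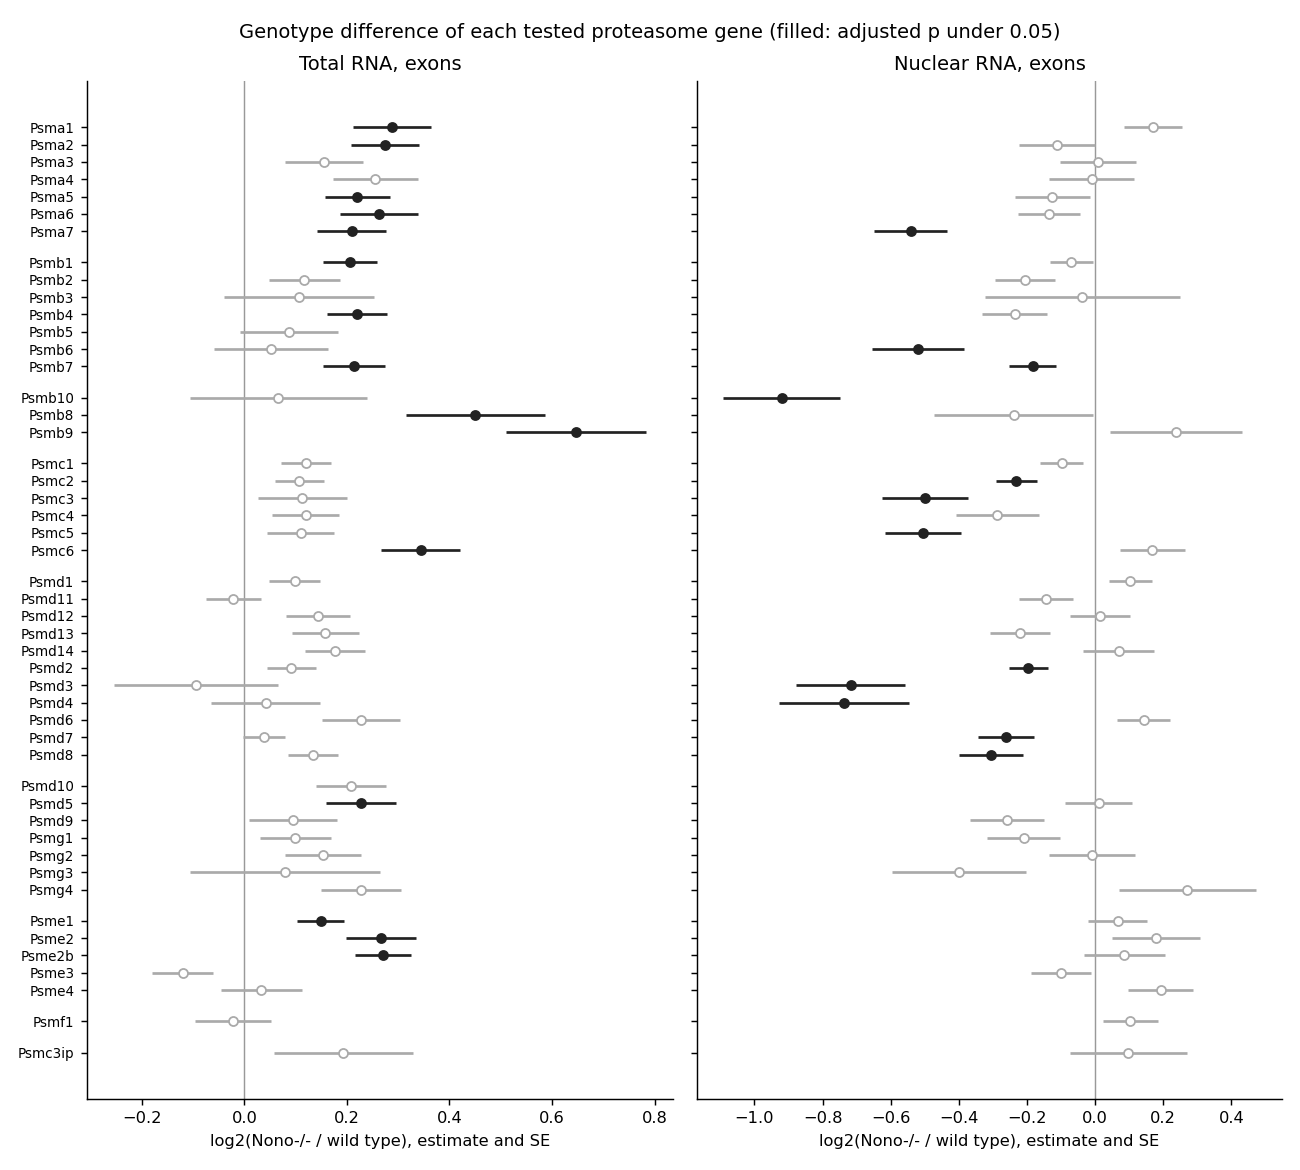
Genotype difference (log2 of Nono-/- over wild type, estimate and SE from limma over 24 libraries) for members tested in total RNA (left) and nuclear RNA exons (right), grouped by role from the alpha ring at the top; the 2 panels have different axes. Filled points pass an adjusted p of 0.05: 15 members to the right of 0 in total RNA, 12 to the left in nuclear RNA.

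Without ZT2 and ZT22, 4 members fell in nuclear exons, and without scaling of the libraries 26 did, where the median of all genes itself shifted by -0.20. Across the 10149 genes with a known GC content, the genotype effect in nuclear exons and GC content had a Spearman rho of -0.73, and across 46 members -0.52. These are descriptions across genes of the same libraries, which are not independent. After a correction of each library for GC content 2 members rose and 11 fell, 7 of them among the 12, where 9.99% of all genes were called in either direction.

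Introns, which are found mostly in unspliced RNA, showed fewer calls among members. In nuclear RNA calls over all genes were fewer too, 2177 of 12055 in introns against 3604 of 10500 in exons. In nuclear RNA 1 of 47 members rose and 5 fell, where 7.91% of 12055 genes rose and 10.2% fell. The share of members that fell, 10.6%, was near that of all genes. Those that fell were Psmb10 (-0.60 ± 0.16), Psmd3 (-0.37 ± 0.09), Psmc5 (-0.28 ± 0.07), Psmd4 (-0.24 ± 0.05) and Psmd7 (-0.17 ± 0.06), each also lower in nuclear exons. Psmb10 introns were 0.515, 1.03 and 1.28 FPKM in wild type and 0.263, 0.686 and 1.02 in Nono-/-, with overlapping ranges. Psmd3 introns were 0.717, 0.8785 and 1.26 FPKM against 0.503, 0.6705 and 0.915, and Psmd4 introns 1.67, 2.06 and 2.65 against 1.37, 1.67 and 2.27. Those of Psmc5 were 0.893, 1.04 and 1.27 against 0.582, 0.8855 and 1.17, and those of Psmd7 1.11, 1.32 and 1.51 against 0.846, 1.2035 and 1.35. All of these ranges overlapped, and Psmd7 had a limma adjusted p of 0.0661 with each time as a block. Psmg4, an assembly chaperone, rose (0.35 ± 0.10), from 0.144, 0.209 and 0.282 FPKM to 0.183, 0.288 and 0.403. Without ZT2 and ZT22, 1 member rose and 2 fell, and without ZT0 the calls came to 10.

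In introns of total RNA 5 of 46 members rose and 1 fell, where 6.62% of 9422 genes rose and 9.34% fell. Psmb9 (0.63 ± 0.18), Psmb4 (0.49 ± 0.10) and Psma1 (0.38 ± 0.08) rose in introns and exons of total RNA, and Psmd8 (0.38 ± 0.12) and Psmd6 (0.29 ± 0.09) rose in introns. Psmb9 introns were 0.130, 0.210 and 0.399 FPKM in wild type and 0.141, 0.316 and 0.736 in Nono-/-, overlapping widely. Psmb4 introns were 2.48, 3.05 and 3.77 FPKM against 2.68, 3.54 and 4.62, and Psma1 introns 1.21, 1.5025 and 1.84 against 1.52, 1.69 and 1.99. Psmd8 introns were 0.823, 1.27 and 1.63 against 1.07, 1.36 and 1.60, and Psmd6 introns 1.06, 1.54 and 2.20 against 1.24, 1.57 and 1.94. Before scaling, the medians of the last 2 genes were close together. Psmd6 had a limma adjusted p of 0.0603 with each time as a block. Psmd11, a cap scaffold gene, fell (-0.28 ± 0.06), from 0.414, 0.554 and 0.742 FPKM to 0.249, 0.354 and 0.538. The genotype effect in total introns and intron length had a Spearman rho of -0.68 across 46 members and -0.435 across 9422 genes. Introns of the 5 that rose covered 1680 to 10303 bases, and those of Psmd11 41763. Wild-type Psmb4 introns were 1.305 to 2.62 FPKM in nuclear RNA, lower than in total RNA at each time but ZT20, with overlapping ranges. FPKM is scaled within each library, and introns took 73.2% of reads in wild-type nuclear and 22.1% in wild-type total RNA. Whether the rises in introns of total RNA are of unspliced RNA was not tested. Without scaling, where the median of all genes shifted by -0.21, 1 member rose and 13 fell, so the direction of the intron counts rests on the scaling. The calls came to 3 without ZT8, ZT12 or ZT18 and to 13 without ZT10.

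Exon levels of proteasome genes, relative to the median gene, were lower in nuclear than in total RNA of wild type. Exon FPKM of all 50 members summed to 1382 ± 95.2 in wild-type total RNA and 179 ± 30.7 in nuclear RNA (SD, n = 12), and to 1586 ± 151 and 143 ± 21.5 in Nono-/-. FPKM is scaled within each library, and exons took 17.6% of reads in wild-type nuclear and 69.2% in wild-type total RNA, so these sums do not give the share of transcripts held in nuclei. Relative to the median gene, 1 of 46 members was higher and 44 were lower, where 43.8% of 9871 genes were higher and 43.8% lower. The median member was at -1.54 on the log2 scale. Psmb3 (-2.94 ± 0.22) and Psmb4 (-2.93 ± 0.09) were the lowest, Psmd11 was at -0.27 ± 0.07, and Psma3, whose transcript is partly repeated elsewhere, was at 0.61 ± 0.09.

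The difference between the nuclear and the total genotype effect was tested directly. On the nuclear to total ratio of each liver sample 0 of 46 members rose and 21 fell, 45.7% of them, where 10.4% of 9871 genes rose and 9.19% fell. The median member differed by -0.29 and the median of all genes by 0.02. Falls were found in 4 of 7 alpha-ring, 5 of 6 constitutive beta-ring, 2 of 3 inducible, 3 of 6 ATPase and 6 of 11 other cap genes, in 1 of 6 assembly chaperones (Psmd9), and in 0 of 5 activators. Psmb10 (-0.99 ± 0.20), Psmd4 (-0.78 ± 0.21), Psma7 (-0.75 ± 0.13) and Psmb8 (-0.69 ± 0.23) fell most (limma adjusted p = 0.00606, 0.0191, 0.00383 and 0.0415). Psma7, Psmc2 and Psmd2 were lower at 12 of 12 times. Psmb2, Psmd13 and Psmd9 passed on the ratio alone. Psmb2 was 31.5, 43.7 and 52.6 FPKM in wild-type and 32.5, 50.5 and 57.4 in Nono-/- total RNA, and 3.09, 4.23 and 7.80 against 2.35, 3.25 and 4.20 in nuclear RNA. Psmd13 was 19.2, 25.3 and 29.2 FPKM against 17.0, 28.2 and 34.4 in total and 2.29, 2.89 and 4.37 against 1.14, 2.26 and 2.97 in nuclear RNA. The Nono-/- medians of both were above wild type in total and below it in nuclear RNA. Psmd9 had the same order, with medians of 5.35 and 6.15 FPKM in total and 1.33 and 0.9805 in nuclear RNA.

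Other genes of the pathway were counted on this ratio against the same shares of all genes. Of 23 partners outside the Psm names 3 fell, Pomp (-0.48 ± 0.11), Shfm1, a small cap subunit (-0.48 ± 0.14), and Aup1 (-0.55 ± 0.18), and Zfand5, a proteasome-binding protein, rose (0.53 ± 0.13). Of 5 ubiquitin genes and E1 enzymes Ubb fell (-0.68 ± 0.19), of 12 cytosolic chaperones Cct5 (-0.41 ± 0.12) and Stip1 (-0.72 ± 0.22) fell, and of 12 class I antigen processing genes H2-D1 fell (-0.41 ± 0.14). List medians were -0.06 for partners, -0.26 for ubiquitin genes and E1 enzymes, -0.20 for chaperones and -0.08 for class I genes. The 6 hepatocyte markers tested had a median of -0.29, with 2 lower, so a median of this size was not particular to proteasome genes. Medians of 7 Kupffer, 6 endothelial and 4 stellate cell markers were 0.07, -0.0024 and -0.09, with 0 called. With each time as a block 15 members fell, and Psma5, Psmb1, Psmb2, Psmd13, Psmd3 and Psmd9 did not pass (limma adjusted p between 0.0547 and 0.0802). The count was 7 without ZT8, 10 without ZT2 or ZT22, and 12 without ZT6 or ZT12. Without ZT2, ZT8, ZT10 and ZT22 it was 0, with 4 of all genes called, and the median member was at -0.29. With the intron shares of both libraries as covariates it was 0, with 5 of all genes called, and the median was -0.24.

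**Figure D4:**
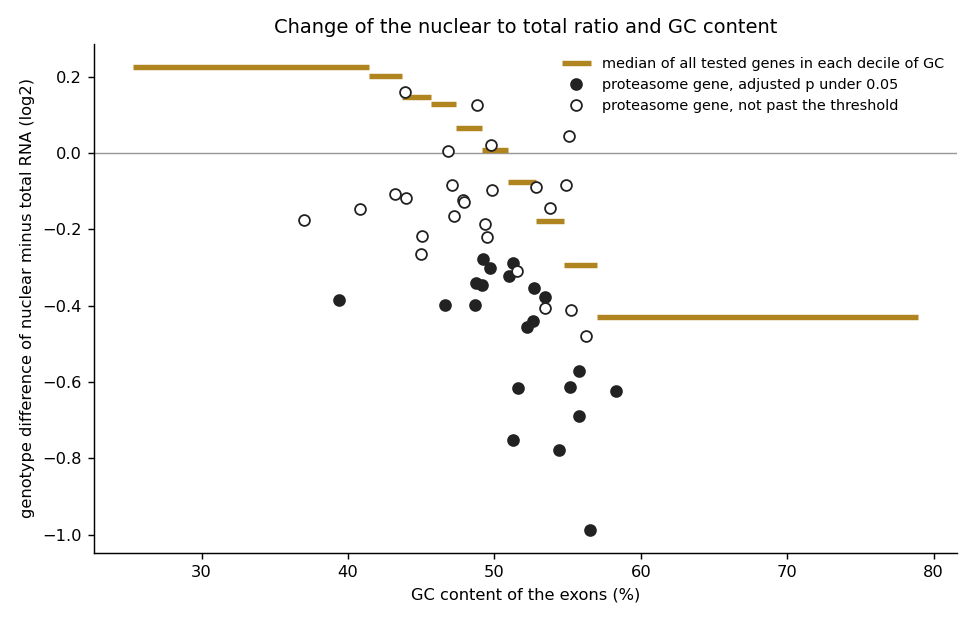
Genotype difference of the nuclear minus total log2 value against GC content for 46 members (points, filled where the adjusted p is under 0.05). Ochre lines give the median of all tested genes in each decile of GC. GC content, named for the exons on the axis, is that of each gene's longest annotated transcript. The decile medians run from 0.23 at the lowest GC to -0.43 at the highest, and 40 of the 46 members lie below the line of their decile.

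The change of this ratio and GC content had a Spearman rho of -0.52 across 46 members and -0.62 across 9552 genes, given as a description. GC content was taken from a gene's longest annotated transcript, which can differ from the exons counted. Psmb10 holds 56.5% GC in a transcript of 1311 bases, where 1260 were counted. Psma2, at -0.39 ± 0.13, holds 39.4% in 2911 bases, where 936 were counted. After the GC correction 21 members fell, 16 of them among the 21, where 15% of all genes were called in either direction.

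Daily rhythms were fitted as a cosine with a period of 24 h. Over total RNA exons 10 of 48 members (20.8%) passed in wild type and 10 (20.8%) in Nono-/-, where 31.6% and 29.6% of 11352 genes did (limma F test). Both shares were below those of all genes. The test of a difference in rhythm called 0 members and 0% of genes, with 1207 genes and 1 member, Psma5, at an unadjusted p under 0.05.

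Psma5 had the largest rhythm of the wild-type calls. Its level was 4.58, 7.06 and 9.64 FPKM in wild type, lowest at ZT20 and highest at ZT10, and 6.46, 7.76 and 10.3 in Nono-/-. The wild-type cosine peaked at ZT7.8 with a peak-to-trough fold of 1.89 (limma adjusted p = 8.082e-05), and the Nono-/- cosine, which did not pass, had a fold of 1.18. The difference gave a limma adjusted p of 0.462, so it did not pass over all genes. Psma1, Psma2 and Psmc6 peaked at ZT6.2, ZT7.4 and ZT7.2 in wild type with folds of 1.5, 1.40 and 1.51. Psmc1 (ZT5.6), Psmc2 (ZT3.7), Psmd14 (ZT3.1), Psmd11 (ZT0.3) and Psmc5 (ZT20.9) had folds between 1.26 and 1.36. Psmc2 was 24.1, 31.3 and 37.9 FPKM in wild type and 26.9, 34.6 and 37.3 in Nono-/-, and Psmd11 was 11.6, 14.3 and 20.9 against 13.2, 14.8 and 17.8. Psmc5 was 15.7, 25.4 and 33.4 FPKM against 18.5, 28.8 and 35.05. Its lowest libraries, wild-type ZT8 and Nono-/- ZT10, are those with the smallest exon shares.

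Psme3 and Psmc5 passed in both genotypes. Psme3 was 9.48, 10.97 and 17.1 FPKM in wild type and 8.72, 10.8 and 14.1 in Nono-/-, highest at ZT16 in each. Its cosines peaked at ZT17.1 and ZT16.7, in the dark, with folds of 1.52 and 1.56 (limma adjusted p = 0.00224 and 0.00158). The other calls in Nono-/- were Psmb9 (peak ZT4.7, fold 2.31), Psmc3ip (ZT17.6, 2.16), Psmb5 (ZT0.5, 1.73), Psmd4 (ZT2, 1.65), Psme4 (ZT14.6, 1.48), Psmc4 (ZT23.5, 1.37), Psme2b (ZT23.9, 1.28) and Psmd7 (ZT23.4, 1.23). In Nono-/- total RNA Psmb5, Psmd4, Psmc4, Psme2b and Psmd7 were lowest in the ZT10 library, which has the smallest exon share. Psmb9 was highest in the ZT6 library, 20.9 FPKM. The wild-type count was 5 without ZT8, ZT18, ZT20 or ZT22. The Nono-/- count was 5 without ZT2, ZT4 or ZT14 and 6 without ZT6, ZT16 or ZT20.

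**Figure D5:**
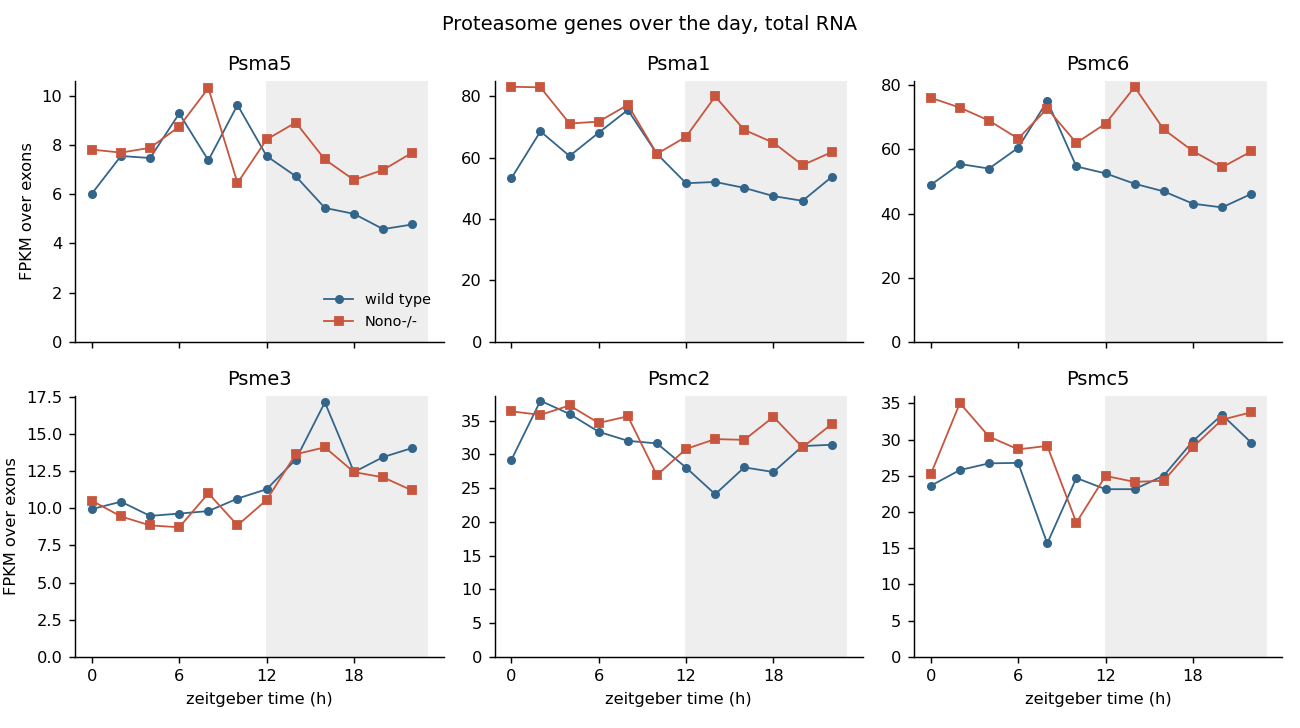
FPKM over exons by zeitgeber time in total RNA for 6 members called rhythmic in wild type, 1 library a point, with the dark phase shaded. Psma5 runs from 4.58 to 9.64 FPKM in wild type, Psme3 is highest at ZT16 in both genotypes, and Psmc5 is lowest in the wild-type ZT8 and Nono-/- ZT10 libraries.

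In nuclear introns 7 of 47 members (14.9%) were rhythmic in wild type and 15 (31.9%) in Nono-/-, where 20.7% and 31.7% of 12055 genes were. The difference in rhythm again called 0 members and 0% of genes, with 800 genes and 6 members at an unadjusted p under 0.05. Psma1, Psma2, Psmb6, Psmd10, Psmd4 and Psmd9 passed in both. Psma1 introns were 1.66, 2.33 and 3.12 FPKM in wild type and 1.89, 2.67 and 3.15 in Nono-/-, and both cosines peaked at ZT23. Psma2 introns peaked at ZT23.4 and ZT23.2. In wild-type total RNA the exons of the same genes peaked at ZT6.2 and ZT7.4. Psmd14 introns had the deepest cosine among the Nono-/- calls, a fold of 1.94 with its peak at ZT21.4, and Psmd9 peaked in the light, at ZT7.5 and ZT9.1. Without ZT2 and ZT22 the counts were 1 in wild type and 5 in Nono-/-. Leaving out 1 time gave 2 (ZT20), 3 (ZT10, ZT22) or 4 (ZT8, ZT12, ZT16) in wild type and 9 (ZT8, ZT10, ZT12, ZT16) in Nono-/-.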

How the data were processed

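RNA of 48 liver libraries was measured by sequencing after removal of ribosomal RNA with a stranded kit, per the labels' protocols. The authors deposited FPKM over exons and introns of each gene, computed with HOMER per the file headers, and the build was mm10, with STAR 2.4.0k and FastQC 0.11.2 listed in the submitters' processing notes. No strand option is written there, so overlapping genes on opposite strands were treated as inseparable. Groups came from the labels.

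Libraries were scaled by their median ratio to the geometric mean library of the fraction. Genes with a mean of 0.5 FPKM (exons) or 0.1 FPKM (introns) were tested on log2(FPKM + 0.1 or 0.05) with limma 3.58.1 in R 4.3.3, with genotype and a 24 h cosine and sine per genotype, and p-values were adjusted over all genes. Repeated stretches were found with BLAST+ 2.17.0, and genes at the same locus were not left out. GC content was that of a gene's longest protein-coding GENCODE M21 transcript, or else of its longest transcript. Scripts were tested on simulated data. Members, lists and the rule for named genes (members past a threshold, the catalytic and activator genes, and up to 4 genes a list) were chosen with earlier results of these data known.

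Low values gave whole reads within 0.1 read, hence the depths. Nuclear and total RNA share a liver sample, per the series design. Libraries of the 2 genotypes at the same time deviated together (correlations of 0.14 to 0.56 in total exons, over 0.1 at 12 of 12 times, and at 11 of 12 in nuclear exons). The deviations were taken from each genotype's mean over all times, so a daily rhythm shared by both genotypes enters these correlations. They do not show a shared deviation beyond the daily curve. A fit that blocks on the time was run because of them. Other pseudocounts, filters, scalings and covariates, a 12 h harmonic and leaving out times were tried. The GC correction, the exon share as covariate and leaving out several times together were added after seeing the data. A result for a transcription factor gene is not reported here.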

Additional observations from a re-analysis of the deposited data

Results flagged for a closer look

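The genotype effect differed between nuclear and total RNA for 21 of 46 proteasome genes by the limma test of the nuclear to total ratio, and all 21 differences were negative on the log2 scale. Of the 9871 genes tested on this ratio 10.4% were higher and 9.19% lower. In the core the values were -0.39 for Psma2, -0.35 for Psma5, -0.40 for Psma6, -0.75 for Psma7, -0.28 for Psmb1, -0.32 for Psmb2, -0.46 for Psmb4, -0.57 for Psmb6, -0.40 for Psmb7, -0.69 for Psmb8 and -0.99 for Psmb10. In the cap they were -0.34 for Psmc2, -0.61 for Psmc3, -0.62 for Psmc5, -0.29 for Psmd2, -0.62 for Psmd3, -0.78 for Psmd4, -0.30 for Psmd7, -0.44 for Psmd8 and -0.38 for Psmd13. The assembly chaperone Psmd9 was at -0.35. The median of the 46 members tested was -0.29, against -0.24 with the intron shares as covariates and -0.27 after the GC correction. With the intron shares no member passed, and Psmd9 was at 0.0151. No member passed without ZT2, ZT8, ZT10 and ZT22 either.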

How the results depend on the processing

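Counts of called proteasome genes stayed within 1.5 times of the reported count under the other pseudocount, no filter on low values, the replicate block, the GC correction and the 12 h harmonic, wherever each was run. With the replicate block the counts were 16 in total exons, 12 in nuclear exons, 5 in nuclear introns, 5 in total introns and 15 for the nuclear to total ratio. Without scaling they were 26 in nuclear exons, 14 in total introns and 34 for the ratio. With the intron share as a covariate they were 0 in total exons, 3 in nuclear introns, 0 in total introns, 5 for the Nono-/- rhythm in total exons and 0 for the ratio. With the exon share they were 3 in nuclear introns and 0 for the ratio. Without ZT2 and ZT22 they were 4 in nuclear exons, 3 in nuclear introns, and 1 (wild type) and 5 (Nono-/-) for rhythms of nuclear introns. Without ZT8 and ZT10 the rhythms in total exons gave 5 in each genotype, and without all 4 times the ratio gave 0, while fewer samples were fitted. Otherwise the cause was not tested.

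Leaving out 1 time gave 6 to 16 in total exons, 10 to 16 in nuclear exons, 4 to 10 in nuclear introns, 3 to 13 in total introns, 5 to 12 for both rhythms in total exons, 2 to 9 and 9 to 14 for rhythms of nuclear introns in wild type and Nono-/-, 7 to 21 for the ratio, 45 to 45 for nuclear against total RNA, and 0 to 0 for the rhythm differences.

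Single genes reversed as follows. With the intron share, total exons gave -0.0062 for Psma7, -0.14 for Psmb10, -0.0885 for Psmb5 and -0.14 for Psmb6, total introns -0.0709 for Psmd8, and the ratio 0.0151 for Psmd9. With the exon share, total exons gave -0.135 for Psmb10, -0.0167 for Psmb5 and -0.0778 for Psmb6. Leaving out 1 time gave -0.0314 to 0.197 for Psmb10, -0.0442 to 0.136 for Psmb6 and -0.0429 to 0.0165 for Psmd11 in total exons, the first 2 below 0 without ZT8 and Psmd11 above 0 without ZT22. In nuclear exons Psme1 was at -0.15 and Psme2 at -0.0117 without scaling, Psmb8 at 0.12 with the GC correction, and Psme1 at -0.004 without ZT6, with a range up to 0.12. Depth was 9.91 to 28.94 M reads, and each time had 1 library a group.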
